A study of Mus musculus with 12 samples.

Results

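A set of 41 genes of DNA replication and S phase was followed in macrophages sorted from mouse aorta and fat. The set was a given list of replication and S phase gene names. It was drawn up without a threshold on any measured value, but with earlier results of these data known. All 41 genes were found by Ensembl identifier among the 46517 genes of the count table. For the description they were put in 7 functional groups: the MCM2-7 helicase, origin licensing and helicase activation, polymerases and primase, the clamp with the clamp loader and lagging strand enzymes, nucleotide supply, chromatin assembly with maintenance methylation, and G1 to S control.

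All 12 libraries came from adult wild type mice of the strain given as C57/BL6, with no treatment named. Cells were sorted as viable (DAPI-) and CD45+CD64+MerTK+CD11b+F4/80+, and were then split by surface LYVE-1, a hyaluronan receptor carried by some tissue macrophages. The 4 groups were aorta LYVE1+, aorta LYVE1-, fat LYVE1+ and fat LYVE1-, with 3 libraries each. Aortas of 30 mice and the epididymal and subcutaneous fat of 20 mice were used, so each library holds cells of pooled animals and the fat libraries mix both depots. Libraries were made from 2 ng of RNA by the full-length Smart-seq2 method and read with 51 cycles from both ends. The labels do not say how mice were pooled into libraries, so a p-value covers only the spread among these libraries, which may be technical.

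Before a cell copies its DNA, the origin recognition complex, Cdc6 and Cdt1 load the ring of Mcm2 to Mcm7 onto origins. In S phase, Cdc45 and the GINS complex turn this ring into an active helicase, primase and the polymerases build the new strands, Pcna clamps the polymerases to DNA, and Lig1 seals the pieces of the lagging strand. Most of these genes are transcribed under E2F factors as cells leave G1, and resident tissue macrophages are known to renew partly by local division.

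Library totals ran from 5049936 to 29792301 counts. The macrophage sort genes were present in every library, with Fcgr1 (CD64) at 70.4 to 204, Mertk at 103 to 210 and Adgre1 (F4/80) at 854 to 1690 CPM, the count scaled to library size with edgeR's TMM factors. Lyve1 itself was higher in each LYVE1+ library than in each LYVE1- library of its tissue. In the LYVE1- libraries it still stood at 868 to 1320 CPM in aorta and 230 to 611 CPM in fat. Between the sorts Lyve1 differed by 2.04 ± 0.33 (SE) on the log2 scale in fat and by 1.31 ± 0.32 in aorta. The adjusted p in edgeR's quasi-likelihood test was 0.00383 in fat and 0.108 in aorta. Any part of this in the replication gene differences was not tested. The libraries numbered 1 of both fat groups stood apart. They had 8.85% and 12.1% of counts on mitochondrial genes against 1.79% to 3.20% in the others, and summed red cell marker levels of 25200 and 5250 CPM against 66.3 to 1470 CPM. Counts of genes called in fat are therefore given with and without them.

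In fat, LYVE1+ macrophages held less RNA of the replication genes than LYVE1- macrophages did, and in the aorta 0 of 41 members were called between the sorts, where only 0.542% of all genes were, so that a count of 0 is close to the share over all genes. Of the 41 members, 16 fell and 0 rose in fat LYVE1+ cells at an adjusted p below 0.05 (edgeR's quasi-likelihood test, Benjamini-Hochberg over 14216 genes), a share of 39.0% where 2.10% of all genes tested were called lower. The fitted difference was negative for 41 of 41 members, and the median log2 fold change was -0.90, against 0.00 over all genes. At an unadjusted p below 0.05, 31 members were lower against 8.22% of all genes, and for 30 members every fat LYVE1+ library lay below every fat LYVE1- library, against 9.83% of all genes. Fewer cells in S phase and less of these RNAs per cell cannot be told apart in bulk samples.

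Summed over the 41 genes, the level was 1220, 1560 and 1540 CPM in fat LYVE1- cells and 861, 786 and 790 CPM in fat LYVE1+ cells. The aorta means lay between these groups, with 1160, 1120 and 1110 CPM in LYVE1- and 1220, 1140 and 1130 CPM in LYVE1+ cells, the highest of them level with the lowest fat LYVE1- library. The fat LYVE1+ group had the lowest mean of the 4 groups for 37 of 41 members, and fat LYVE1- the highest mean for 34 of 41. The ends of the order were thus the 2 sorts of the same tissue. Without both fat libraries numbered 1, 21 members fell against 3.26% of all genes, 33 had an unadjusted p below 0.05 in that direction against 9.48%, and the median was -1.03. By functional group, these 21 were 6 of the helicase, 3 of licensing and activation, 3 of the polymerases and primase, 2 of the clamp group, 4 of nucleotide supply, 3 of chromatin assembly and 0 of G1 to S control. The count of 16 became 6 without fat LYVE1+ library 2 or 3, 8 when library 2 of fat LYVE1- cells was left out and 9 when library 3 was, and 4 when only the fat groups were fitted. Those 4 were Tk1, Rrm2, Mcm5 and Mcm3, the members whose call in fat held under each of the 20 alternatives.

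**Figure D1:**
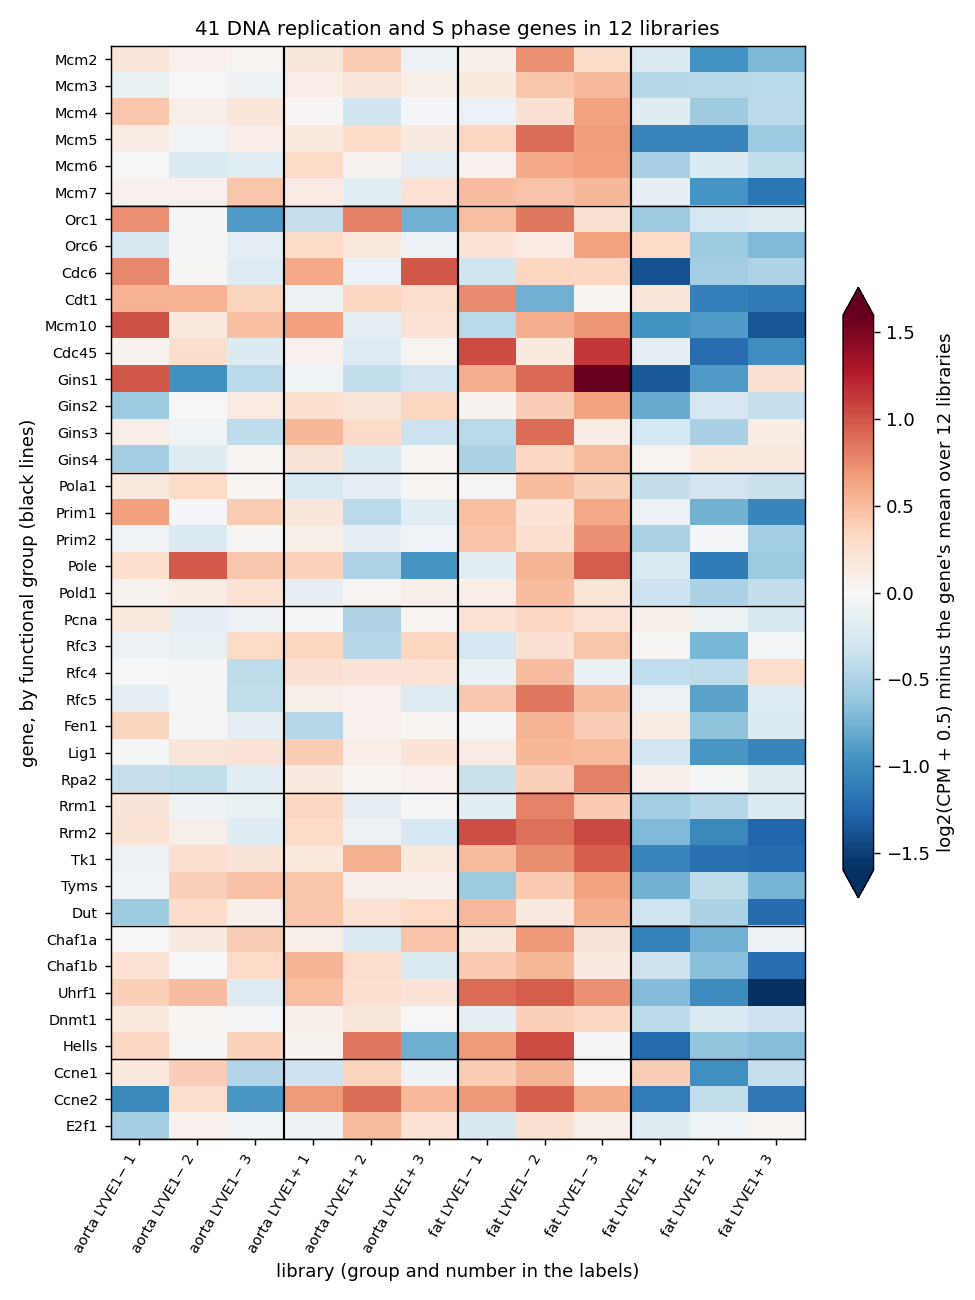
Level of each of the 41 members in each of the 12 libraries, as log2(CPM + 0.5) minus that gene's mean over the libraries (red above, blue below); vertical lines part the 4 groups and horizontal lines the 7 functional groups. The 3 fat LYVE1+ columns are mostly blue and the 3 fat LYVE1- columns mostly red, while the 6 aorta columns stay near the gene means.

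The group with the lowest median was nucleotide supply, whose 5 members had a median log2 fold change of -1.17 in fat and of which 2 were called. Tk1, the thymidine kinase that salvages thymidine, stood at 23.7, 27.9 and 32.6 CPM in fat LYVE1- cells and at 7.68, 6.93 and 6.75 CPM in fat LYVE1+ cells. The fat groups were far apart, and Tk1 fell by 1.98 ± 0.21 (SE) on the log2 scale with an adjusted p of 0.00047. Aorta values for Tk1 were 15.4, 20.1 and 19.1 CPM in LYVE1- and 18.7, 24.7 and 18.6 CPM in LYVE1+ cells, which overlap and have means between those of the fat groups. Rrm2, the S phase subunit of ribonucleotide reductase, showed the same order in fat. Its levels were 39.5, 35.3 and 40.0 CPM in fat LYVE1- and 11.5, 9.01 and 7.56 CPM in fat LYVE1+ libraries. Rrm2 fell by 2.04 ± 0.22 on the log2 scale (adjusted p = 0.00047). In the aorta, Rrm2 read 22.1, 20.3 and 16.6 CPM in LYVE1- and 23.7, 17.7 and 15.5 CPM in LYVE1+ cells, again overlapping.

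The large reductase subunit Rrm1, which is less tied to S phase than Rrm2, was not called. Fat LYVE1- libraries had 57.1, 111 and 86.2 CPM of Rrm1 and fat LYVE1+ libraries 43.6, 46.4 and 55.0 CPM, with a log2 fold change of -0.81 ± 0.22 and an adjusted p of 0.0625. The groups did not overlap, but fat LYVE1- library 1 was close to the highest LYVE1+ library. Rrm1 was at 73.7, 60.3 and 59.5 CPM in aorta LYVE1- and 81.0, 58.6 and 62.7 CPM in aorta LYVE1+ cells. Thymidylate synthase, Tyms, gave 11.5, 23.2 and 27.1 CPM in fat LYVE1- and 9.98, 12.9 and 10.1 CPM in fat LYVE1+ cells. Here fat LYVE1- library 1 lay among the LYVE1+ values, and the log2 fold change of -0.90 ± 0.29 had an adjusted p of 0.121. Tyms in the aorta was 16.7, 22.5 and 24.1 CPM in LYVE1- and 23.7, 18.3 and 18.2 CPM in LYVE1+ libraries. Dut, the dUTPase that keeps uracil out of DNA, had a log2 fold change of -1.17 ± 0.35 in fat (adjusted p = 0.0943).

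The MCM2-7 helicase had the largest share of called members, 5 of 6, with a median of -0.93 in fat. Mcm5 fell by 1.55 ± 0.18 on the log2 scale (adjusted p = 0.000552), from 63.1, 92.5 and 78.9 CPM in fat LYVE1- to 23.6, 23.5 and 33.0 CPM in fat LYVE1+ cells. In the aorta Mcm5 stood at 53.9, 47.6 and 53.4 CPM in LYVE1- and at 55.3, 61.6 and 55.0 CPM in LYVE1+ cells. The aorta groups did not overlap for Mcm5, but their difference of 0.15 ± 0.17 had an adjusted p of 0.795. Mcm3, the most abundant helicase subunit per kilobase of exon, changed less but with little spread. Its levels were 110, 134 and 141 CPM in fat LYVE1- and 71.4, 72.6 and 73.1 CPM in fat LYVE1+ libraries, a log2 fold change of -0.83 ± 0.13 (adjusted p = 0.00273). Mcm3 read 91.5, 99.1 and 93.3 CPM in aorta LYVE1- and 106, 113 and 105 CPM in aorta LYVE1+ cells.

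Mcm7 and Mcm6 followed the same order in fat. Mcm7 was at 51.8, 50.1 and 52.8 CPM in fat LYVE1- and 33.4, 18.7 and 16.1 CPM in fat LYVE1+ cells, where library 1 was the highest, with a log2 fold change of -1.20 ± 0.24 (adjusted p = 0.0139). In aorta it was 38.3, 38.4 and 49.8 CPM in LYVE1- and 40.0, 32.2 and 43.0 CPM in LYVE1+ libraries. Mcm7 also hosts Mir25 and Mir93 within its span. Mcm6 gave 98.3, 143 and 148 CPM in fat LYVE1- and 64.9, 80.4 and 70.8 CPM in fat LYVE1+ cells, without overlap (log2 fold change -0.85 ± 0.18, adjusted p = 0.0188). Its aorta levels were 93.8, 79.3 and 82.0 CPM in LYVE1- and 116, 97.2 and 83.5 CPM in LYVE1+ cells. Mcm2 fell by 1.02 ± 0.22 (adjusted p = 0.0197), and Mcm4, the subunit not called, had a log2 fold change of -0.69 ± 0.19 (adjusted p = 0.0687). The summed helicase level was 421, 558 and 560 CPM in fat LYVE1- and 278, 254 and 260 CPM in fat LYVE1+ libraries, so library 1 of fat LYVE1- was lower than the other two of its group. In aorta the sum was 402, 369 and 386 CPM in LYVE1- and 423, 407 and 382 CPM in LYVE1+ cells.

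Of the 10 genes of origin licensing and helicase activation, 2 were called in fat, both of the activation step, and the median was -0.92. Cdc45, a subunit of the active helicase, stood at 16.0, 8.44 and 17.0 CPM in fat LYVE1- and 6.72, 2.95 and 3.53 CPM in fat LYVE1+ cells. The nearest libraries of the groups were only 8.44 and 6.72 CPM, and Cdc45 fell by 1.68 ± 0.37 on the log2 scale (adjusted p = 0.0233). Cdc45 in the aorta was 7.82, 9.23 and 6.38 CPM in LYVE1- and 7.92, 6.46 and 7.76 CPM in LYVE1+ libraries. Mcm10, which helps to start the fork, read 5.5, 11.6 and 12.7 CPM in fat LYVE1- and 3.65, 3.81 and 2.62 CPM in fat LYVE1+ cells. Its log2 fold change was -1.57 ± 0.39 (adjusted p = 0.0405), a call that ended in 10 of 20 alternatives. Aorta levels of Mcm10 were 15.9, 8.48 and 10.8 CPM in LYVE1- and 12.2, 6.84 and 8.89 CPM in LYVE1+ cells, overlapping those of fat LYVE1- cells.

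Gins4, a GINS subunit, was the member with the smallest difference in fat, -0.05 ± 0.25. It stood at 15.6, 28.2 and 31.9 CPM in fat LYVE1- and 23.0, 25.2 and 24.9 CPM in fat LYVE1+ cells, and all 3 LYVE1+ values fell inside the LYVE1- range. Aorta libraries held 15.2, 19.4 and 22.7 CPM of Gins4 in LYVE1- and 25.8, 18.9 and 22.7 CPM in LYVE1+ cells. The other GINS subunits had log2 fold changes of -1.93 ± 0.73 for Gins1, -0.87 ± 0.26 for Gins2 and -0.54 ± 0.40 for Gins3, none called, and Gins1 had the lowest count of any member in a library, 3. Cdt1, the loading factor removed once S phase starts, gave 33.7, 11.4 and 20.4 CPM in fat LYVE1- and 22.6, 9.01 and 8.77 CPM in fat LYVE1+ libraries, which overlapped (adjusted p = 0.426). In aorta Cdt1 was 29.2, 29.2 and 25.4 CPM in LYVE1- and 18.6, 25.2 and 24.2 CPM in LYVE1+ cells. Cdc6, Orc1 and Orc6 were not called either, at -0.96 ± 0.39, -1.12 ± 0.71 and -0.64 ± 0.29 in fat.

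Of the 5 polymerase and primase genes, 3 were called in fat, with a median of -0.85. Pold1, the catalytic subunit of polymerase delta, stood at 47.2, 62.1 and 50.4 CPM in fat LYVE1- and 34.9, 30.9 and 33.5 CPM in fat LYVE1+ cells (log2 fold change -0.69 ± 0.14, adjusted p = 0.0183). The aorta gave 45.9, 47.9 and 51.9 CPM of Pold1 in LYVE1- and 40.1, 45.4 and 46.7 CPM in LYVE1+ cells. Pola1 is the catalytic subunit of polymerase alpha. It read 38.3, 53.2 and 49.3 CPM in fat LYVE1- and 28.8, 30.6 and 29.4 CPM in fat LYVE1+ libraries, a log2 fold change of -0.66 ± 0.16 (adjusted p = 0.0326, a call that ended in 10 of 20 alternatives). Pola1 in the aorta was 42.1, 46.7 and 38.6 CPM in LYVE1- and 31.7, 33.9 and 38.6 CPM in LYVE1+ cells.

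Primase makes the RNA primers, and its large subunit Prim2 was called in fat while the small subunit Prim1 was not, a difference between them that was not tested. Prim2 stood at 21.1, 18.3 and 25.7 CPM in fat LYVE1- and 10.6, 15.1 and 10.2 CPM in fat LYVE1+ cells (log2 fold change -0.85 ± 0.22, adjusted p = 0.0477). This call ended in 16 of 20 alternatives, among them the replicate block, with an adjusted p of 0.0744. Prim2 was at 14.6, 12.9 and 15.4 CPM in aorta LYVE1- and 16.3, 13.9 and 14.6 CPM in aorta LYVE1+ cells. Prim1 read 21.4, 17.7 and 23.4 CPM in fat LYVE1- and 14.2, 8.75 and 7.06 CPM in fat LYVE1+ libraries, and its larger difference of -1.08 ± 0.29 had an adjusted p of 0.0608. Aorta levels of Prim1 were 24.3, 14.9 and 20.3 CPM in LYVE1- and 17.2, 11.1 and 13.3 CPM in LYVE1+ cells. Pole, of polymerase epsilon, had -1.24 ± 0.45 in fat and -0.90 ± 0.43 in aorta, neither called.

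The clamp, clamp loader and lagging strand genes changed least among the groups with called members, with a median of -0.40 and 2 of 7 called. Lig1, the ligase that joins Okazaki fragments, stood at 29.0, 38.6 and 37.9 CPM in fat LYVE1- and 21.3, 13.6 and 12.5 CPM in fat LYVE1+ cells. Lig1 fell by 1.17 ± 0.21 on the log2 scale (adjusted p = 0.00793). Its aorta levels were 25.9, 30.4 and 30.7 CPM in LYVE1- and 35.0, 28.6 and 30.9 CPM in LYVE1+ libraries, overlapping fat LYVE1- cells. Rfc5, a subunit of the clamp loader, gave 31.1, 41.6 and 32.4 CPM in fat LYVE1- and 21.5, 12.4 and 19.7 CPM in fat LYVE1+ cells (-0.98 ± 0.22, adjusted p = 0.026). In the aorta Rfc5 was 20.6, 22.3 and 17.3 CPM in LYVE1- and 24.5, 24.1 and 19.7 CPM in LYVE1+ cells, within or above the fat LYVE1+ range.

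Pcna, the sliding clamp, was the most abundant member per kilobase of exon and changed little. It read 110, 118 and 110 CPM in fat LYVE1- and 99.2, 88.0 and 77.9 CPM in fat LYVE1+ cells, without overlap, and the log2 fold change of -0.36 ± 0.16 had an adjusted p of 0.3. Aorta libraries had 104, 83.9 and 88.7 CPM of Pcna in LYVE1- and 92.3, 66.8 and 96.5 CPM in LYVE1+ cells. Rpa2, of the single-strand binding complex, was 17.1, 28.8 and 39.0 CPM in fat LYVE1- and 23.4, 21.8 and 19.2 CPM in fat LYVE1+ cells, which overlapped (-0.40 ± 0.24, adjusted p = 0.479). Rpa2 in the aorta ran the other way without a call, at 17.0, 16.7 and 19.3 CPM in LYVE1- and 24.3, 22.5 and 23.1 CPM in LYVE1+ cells (0.40 ± 0.24, adjusted p = 0.562). The loader subunits Rfc3 and Rfc4 and the flap nuclease Fen1 had log2 fold changes of -0.39, -0.28 and -0.64 in fat, with no call.

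Chromatin assembly and maintenance methylation had 2 of 5 members called and a median of -1.15. Uhrf1, which brings the maintenance methyltransferase to newly copied DNA, had the largest fold change of all 41 members in fat. It stood at 40.4, 42.6 and 36.1 CPM in fat LYVE1- and 13.1, 10.4 and 3.33 CPM in fat LYVE1+ cells, and fell by 2.18 ± 0.37 on the log2 scale (adjusted p = 0.00515). Aorta levels of Uhrf1 were 28.2, 30.3 and 18.5 CPM in LYVE1- and 30.1, 25.8 and 24.8 CPM in LYVE1+ libraries. Dnmt1, the methyltransferase itself, differed less. Its levels were 70.4, 103 and 99.5 CPM in fat LYVE1- and 59.1, 67.3 and 62.6 CPM in fat LYVE1+ cells (-0.53 ± 0.15, adjusted p = 0.0754), and library 1 of fat LYVE1- came close to the LYVE1+ values. In the aorta Dnmt1 was 87.9, 80.5 and 77.6 CPM in LYVE1- and 83.2, 89.7 and 78.4 CPM in LYVE1+ cells.

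Chaf1b and Chaf1a, subunits of the chromatin assembly factor that places histones behind the fork, had like differences. Chaf1b gave 14.6, 15.8 and 12.0 CPM in fat LYVE1- and 8.45, 6.59 and 4.33 CPM in fat LYVE1+ cells (-1.15 ± 0.29, adjusted p = 0.0483, a call that ended in 12 of 20 alternatives). Aorta Chaf1b was 12.8, 10.8 and 13.4 CPM in LYVE1- and 15.9, 13.2 and 9.11 CPM in LYVE1+ libraries. Chaf1a stood at 11.3, 16.4 and 11.5 CPM in fat LYVE1- and 4.41, 5.63 and 9.37 CPM in fat LYVE1+ cells (-1.0 ± 0.32, adjusted p = 0.115), and neither gene's fat groups overlapped. In aorta Chaf1a was 9.90, 11 and 13.2 CPM in LYVE1- and 10.6, 8.49 and 13.8 CPM in LYVE1+ cells. Hells, a chromatin remodeler tied to DNA methylation, had a log2 fold change of -1.56 ± 0.45 in fat (adjusted p = 0.0785).

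None of the 3 G1 to S control members was called in fat, where 1 had an unadjusted p below 0.05 and DESeq2 called 1 lower. E2f1, the transcription factor that drives many of the other members, stood at 35.6, 50.6 and 45.4 CPM in fat LYVE1- and 37.2, 41.1 and 44.0 CPM in fat LYVE1+ cells. The LYVE1+ values lay inside the LYVE1- range, with a log2 fold change of -0.10 ± 0.20 (adjusted p = 0.864). E2f1 in the aorta was 29.5, 44.7 and 40.7 CPM in LYVE1- and 40.5, 60.7 and 50.4 CPM in LYVE1+ cells. The E-type cyclins activate Cdk2 at the start of S phase, and both were low. Ccne2 read 6.65, 8.15 and 6.17 CPM in fat LYVE1- and 1.54, 2.86 and 1.51 CPM in fat LYVE1+ libraries (-1.80 ± 0.48, adjusted p = 0.0559). In aorta it went the other way, at 1.67, 4.88 and 1.82 CPM in LYVE1- and 6.62, 7.74 and 5.83 CPM in LYVE1+ cells (1.25 ± 0.45, adjusted p = 0.308). For Ccne2 neither tissue's groups overlapped, and the difference between tissues of -3.05 ± 0.66 had an adjusted p of 0.137. Ccne1 was at 4.61, 5.20 and 3.38 CPM in fat LYVE1- and 4.61, 1.47 and 2.52 CPM in fat LYVE1+ cells, with aorta levels of 3.88, 4.65 and 2.31 CPM in LYVE1- and 2.61, 4.51 and 3.20 CPM in LYVE1+ cells.

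**Figure D2:**
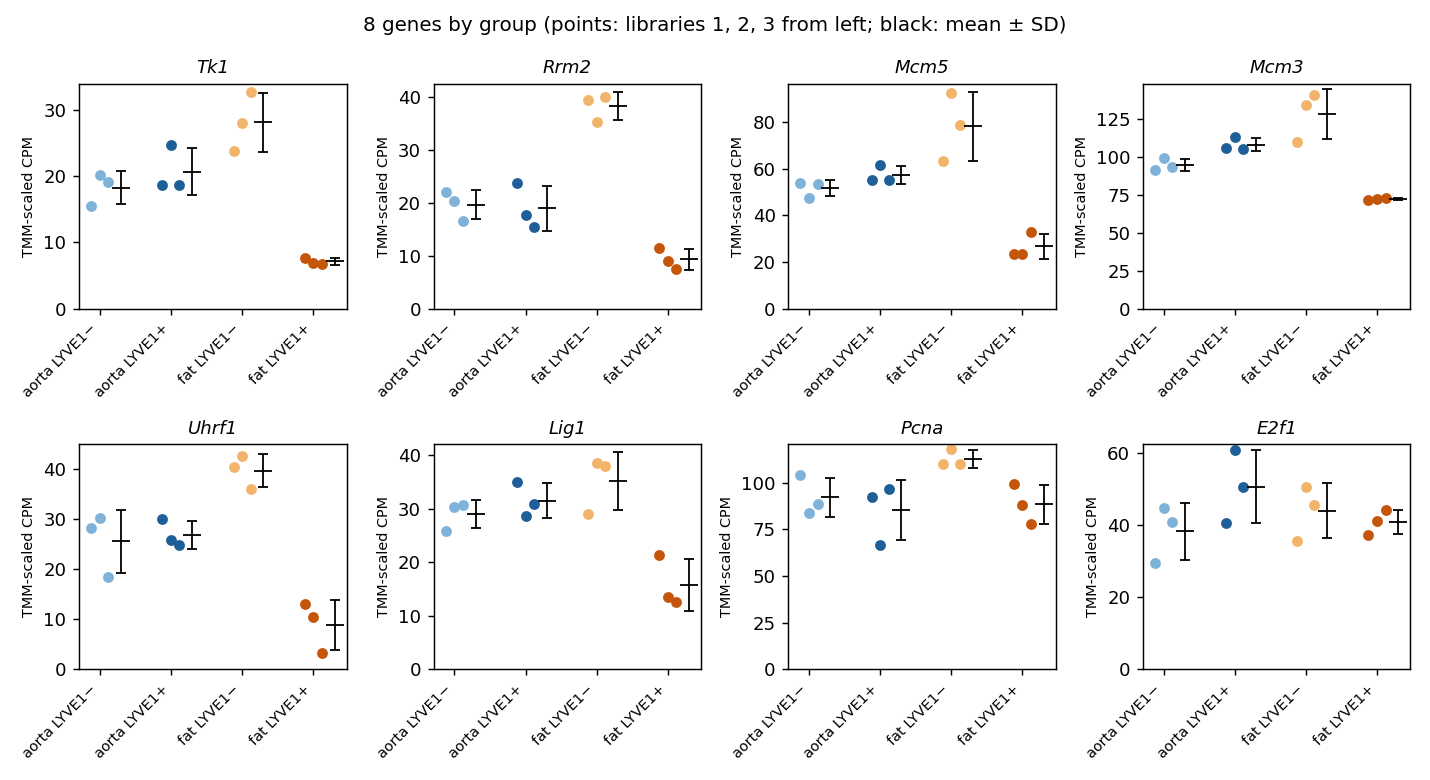
TMM-scaled CPM of Tk1, Rrm2, Mcm5, Mcm3, Uhrf1, Lig1, Pcna and E2f1 in each library by group, with the mean and SD of 3 libraries in black; each axis starts at 0. The first 6 genes have the 3 fat LYVE1+ points below all other groups and the fat LYVE1- mean highest, while the E2f1 groups overlap.

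Apart from Tk1, Rrm2, Mcm5, Mcm3 and Uhrf1, each call in fat was lost when some single fat library was left out. Without fat LYVE1+ library 2, 10 calls ended, with adjusted p-values in edgeR from 0.0504 for Lig1 to 0.148 for Chaf1b. Without fat LYVE1+ library 3, 10 calls ended, from 0.0649 for Mcm7 to 0.218 for Prim2. Leaving out fat LYVE1- library 2 ended 8 calls, from 0.0572 for Prim2 to 0.128 for Chaf1b, and leaving out fat LYVE1- library 3 ended 7, from 0.0577 for Rfc5 to 0.178 for Prim2. Fewer calls ended without a library numbered 1: without that of LYVE1- cells the calls of Cdc45 (0.0676), Chaf1b (0.11) and Prim2 (0.1) ended, and without that of LYVE1+ cells those of Pola1 (0.0553) and Prim2 (0.0796). None of the 16 changed sign in any of these fits.

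Some of these counts are uncertain. The strand setting of the counting was not given in the sources used here, and 7 members share at least 10% of their exonic bases with a gene on the other strand: Fen1 with 84.2%, Gins2 with 67.3%, Chaf1a with 52.5%, Ccne2 with 17.4%, Rfc4 with 12.7%, Orc1 with 10.8% and Rfc5 with 10.7%. Of these, only Rfc5 was called in fat. Levels are compared between genes per kilobase of exon, as CPM per kilobase averaged over the 12 libraries, where Pcna led at 39.5, followed by Mcm3 at 26.9, Mcm6 at 20.7, Gins4 at 16.9 and Mcm4 at 15.5. The median over the members was 4.92, and Orc1 at 0.539 and Pole at 0.690 were the lowest. Of these 5 most abundant members, Mcm3 and Mcm6 were called in fat.

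Promoter sequences are shown for Rrm2, Mcm5, Mcm3 and Uhrf1, called members whose windows hold E2F-like letters or a CCAAT box. They are not typical of all called members, and those with neither are named after the sequences. RefSeq windows of 250 bases before to 50 bases after the start were found for 34 of the 41 members and 27025 genes in all (build GRCm38.p6, the window nearest the gene's outer start where a gene had several). The Rrm2 window is chr12:24708004-24708303 on the plus strand, Mcm5 chr8:75109259-75109558 on the plus strand, Mcm3 chr1:20820263-20820562 on the minus strand, and Uhrf1 chr17:56303087-56303386 on the plus strand. Each is printed on the gene's own strand, and capitals mark the E2F-like letters TTTGGCGC, TTTCGCGC, TTTCCCGC and TTTGGCGG and the CCAAT box, on either strand.
Rrm2: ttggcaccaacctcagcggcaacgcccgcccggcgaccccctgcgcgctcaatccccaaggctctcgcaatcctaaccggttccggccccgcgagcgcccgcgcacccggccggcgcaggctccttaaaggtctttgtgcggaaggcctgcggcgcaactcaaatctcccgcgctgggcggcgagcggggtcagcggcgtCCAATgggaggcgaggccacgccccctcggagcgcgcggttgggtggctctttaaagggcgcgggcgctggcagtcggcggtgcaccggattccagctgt
Mcm5: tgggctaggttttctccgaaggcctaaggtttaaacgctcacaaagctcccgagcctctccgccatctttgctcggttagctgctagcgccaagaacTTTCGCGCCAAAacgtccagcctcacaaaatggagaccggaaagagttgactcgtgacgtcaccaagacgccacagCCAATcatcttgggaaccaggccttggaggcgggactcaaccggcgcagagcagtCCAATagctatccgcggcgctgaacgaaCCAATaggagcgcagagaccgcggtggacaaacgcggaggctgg
Mcm3: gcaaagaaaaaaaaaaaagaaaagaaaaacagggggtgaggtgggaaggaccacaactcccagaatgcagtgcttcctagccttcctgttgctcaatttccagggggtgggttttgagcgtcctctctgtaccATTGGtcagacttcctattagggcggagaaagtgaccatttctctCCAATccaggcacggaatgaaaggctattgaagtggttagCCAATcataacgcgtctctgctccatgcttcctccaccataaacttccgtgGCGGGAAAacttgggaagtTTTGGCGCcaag
Uhrf1: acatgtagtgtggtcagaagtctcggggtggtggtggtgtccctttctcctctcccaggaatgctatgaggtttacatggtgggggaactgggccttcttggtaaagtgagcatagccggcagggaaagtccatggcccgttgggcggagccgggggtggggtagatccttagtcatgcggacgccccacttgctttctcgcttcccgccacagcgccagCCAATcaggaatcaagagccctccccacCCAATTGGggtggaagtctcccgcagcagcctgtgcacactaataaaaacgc
In the Mcm5 window, 2 E2F-like matches overlap in one capital run, 153 and 149 bases before the start, and 3 CCAAT boxes follow. The Mcm3 window holds CCAAT or its reverse 117, 72 and 32 bases before the start and 2 E2F-like matches after it. Rrm2 and Uhrf1 hold CCAAT and no E2F-like letters of these 4 forms. The windows of Tk1, Lig1, Rfc5 and Chaf1b, also called in fat, hold no CCAAT and no E2F-like letters of these forms and are not printed.

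Over the 34 members with a window, 13 held at least 1 of the E2F-like words, 38.2% against 2.43% of all 27025 promoters. The share was 40.0% (6 of 15) for members called in fat and 36.8% (7 of 19) for the others, 2 close shares. CCAAT, on either strand, was in 58.8% of the member windows and 38.0% of all. The words TTTGAA and TTTAAA, like the CHR element of late cell cycle genes, were in 26.5% of member windows and 27.9% of all, and in 85.2% of the 27 windows of a list of mitosis genes, of which 3.70% held an E2F-like word. The member windows were richer in G and C, with a median of 58.0% against 52.7%, which was not matched here. A match is a description of letters and not of binding.

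In the aorta, the same sort split gave no called member. By file name prefix, only LYVE1+ library 3 goes with the LYVE1- libraries, so sort and prefix can hardly be told apart in the aorta. With edgeR 0 of 41 members passed the adjusted threshold, where 0.542% of all genes did in either direction, and with DESeq2 also 0. At an unadjusted p below 0.05 there was 1, Ccne2, against 11.3% of all genes. The median log2 fold change of the members was 0.07 against -0.01 over all genes, and 23 of 41 were positive. For 8 members the aorta groups did not overlap, 6 with LYVE1+ higher, against 22.4% of all genes in either direction. Member differences ran from -0.90 ± 0.43 for Pole to 1.25 ± 0.45 for Ccne2. Among the functional groups, the polymerases alone had sums without overlap between the aorta sorts, at 135, 137 and 136 CPM in LYVE1- and 114, 109 and 117 CPM in LYVE1+ libraries, while none of the 5 genes was called.

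**Figure D3:**
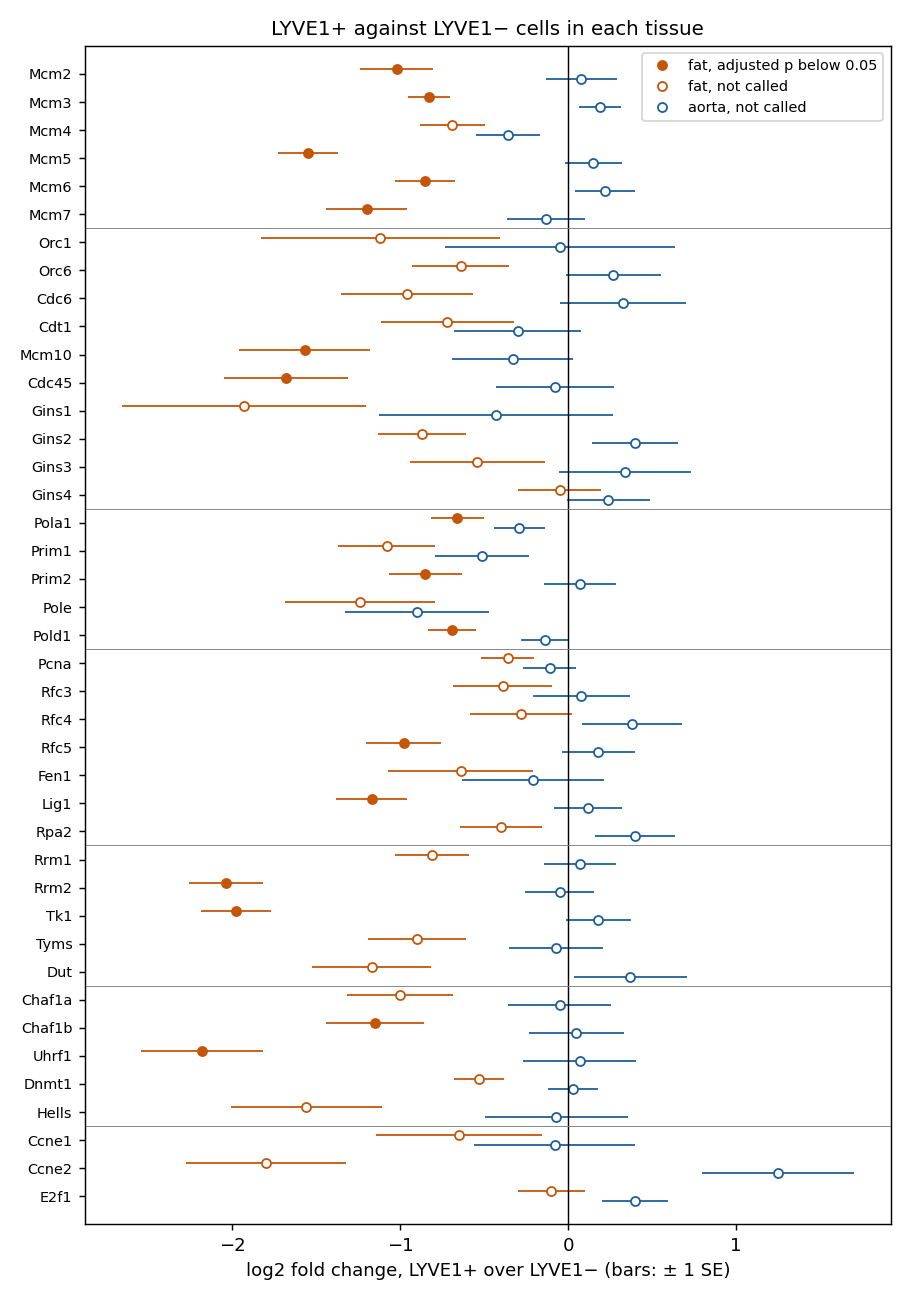
Fitted log2 fold change of LYVE1+ over LYVE1- cells for each of the 41 members in fat (orange) and aorta (blue), with bars of 1 SE; filled points passed an adjusted p of 0.05. All orange points lie left of 0, from -2.18 for Uhrf1 to -0.05 for Gins4, and the blue points scatter around 0.

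The difference between the tissues in the effect of the sort was tested as an interaction. It was called for 4 members, all more negative in fat, where 0.148% of all genes were called in that direction. These were Tk1 at -2.16 ± 0.28 (adjusted p = 0.0206), Rrm2 at -1.99 ± 0.30 (adjusted p = 0.0206), Mcm5 at -1.70 ± 0.25 (adjusted p = 0.0206) and Mcm3 at -1.02 ± 0.18 (adjusted p = 0.0466). The interaction was negative for 41 of 41 members, with a median of -0.95, and 24 had an unadjusted p below 0.05 in that direction, against 3.27% of all genes. For Uhrf1 and Lig1 the interaction was -2.25 ± 0.49 (adjusted p = 0.145) and -1.29 ± 0.29 (adjusted p = 0.156). The Mcm3 call ended with a replicate block, at an adjusted p of 0.0723.

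Over 19 alternatives the fitted interaction ran from -2.32 to -2.01 for Tk1 and from -2.15 to -1.7 for Rrm2. For Mcm5 it ran from -1.89 to -1.56 and for Mcm3 from -1.12 to -0.94. The calls themselves were often lost when a single library was left out. The count was 0 without aorta LYVE1+ library 1 or 3, without any one of the 3 aorta LYVE1- libraries, without LYVE1+ library 2 of fat, or without LYVE1- library 2 or 3 of fat, and 1, Mcm5, without fat LYVE1+ library 3. It was 9 without both fat libraries numbered 1. File name prefixes split the libraries in 2 sets, with aorta LYVE1+ 1 and 2 and all fat libraries in one and the other aorta libraries in the other, and with that prefix as a term the count was 0. The fitted interactions stayed negative with the prefix as a term, at -2.01 for Tk1 (adjusted p = 0.151), -1.7 for Rrm2 (0.246), -1.64 for Mcm5 (0.182) and -0.98 for Mcm3 (0.391). Only the aorta LYVE1+ group holds both prefixes, so the term rests on its library 3 against its libraries 1 and 2. The kept sign therefore cannot show whether the prefix plays a part. Within fat all libraries share a prefix, so the fat comparison is within it.

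Set against fat, aorta cells had more replication RNA in the LYVE1+ sort. Of 41 members, 6 were higher in aorta LYVE1+ than in fat LYVE1+ cells, where 1.88% of all genes were called higher. They were Tk1 (1.54 ± 0.21, adjusted p = 0.00229), Mcm5 (1.10 ± 0.18, 0.00553), Lig1 (1.01 ± 0.21, 0.0237), Rrm2 (1.03 ± 0.22, 0.0244), Mcm3 (0.58 ± 0.12, 0.0276) and Uhrf1 (1.62 ± 0.36, 0.0313). All 6 are also among the 16 that fell in fat, and both comparisons use the same fat LYVE1+ libraries. The median of the members was 0.49, 39 were positive, and 19 were higher without overlap, against 11.3% of all genes. Tk1 and Mcm5 held in each of 20 alternatives. The count was 2 without aorta LYVE1+ library 1 or fat LYVE1+ library 2, 3 without aorta LYVE1+ library 2 or 3 or fat LYVE1+ library 3, and 3 with the prefix as a term.

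In LYVE1- cells the aorta was slightly below fat. Only Rrm2 was called, lower in the aorta at -0.96 ± 0.21 (adjusted p = 0.0317), where 0.823% of all genes were called lower. The median of the members was -0.29, 36 of 41 were negative, and 12 were lower without overlap, against 9.90% of all genes. Rrm2 was no longer called without any one of the 3 aorta LYVE1- libraries or of the 3 fat LYVE1- libraries, and with the prefix as a term, where its adjusted p was 0.877. All 3 aorta LYVE1- libraries carry the other prefix, so tissue and prefix cannot be told apart in this comparison.

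**Figure D4:**
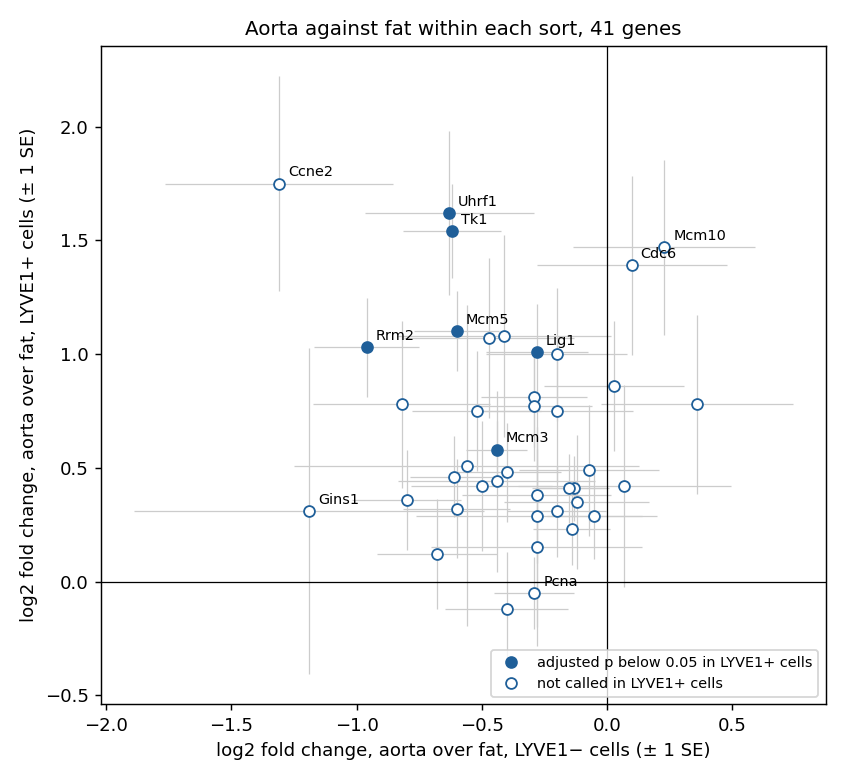
Log2 fold change of aorta over fat for each of the 41 members in LYVE1- cells (horizontal axis) and LYVE1+ cells (vertical axis), with bars of 1 SE and filled points for the 6 called in LYVE1+ cells. Most points lie above 0 on the vertical axis and left of 0 on the horizontal axis, that is, aorta above fat in LYVE1+ cells and below fat in LYVE1- cells.

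By functional group, nucleotide supply had a summed level of 141, 205 and 196 CPM in fat LYVE1- and 77.7, 79.6 and 81.8 CPM in fat LYVE1+ cells. The chromatin assembly group summed to 147, 191 and 165 against 87.3, 93.8 and 83.3 CPM. For the clamp group the sums were 212, 264 and 255 against 192, 154 and 158 CPM. The 3 G1 to S control genes summed to 46.8, 64.0 and 55.0 CPM in fat LYVE1- and 43.4, 45.4 and 48.1 CPM in fat LYVE1+ cells, the one functional group of the 7 whose fat ranges overlap. E2f1 made up most of this sum, with a mean of 43.9 of 55.3 CPM in fat LYVE1- and 40.8 of 45.6 CPM in fat LYVE1+ cells. Taken singly, E2f1 and Ccne1 overlapped in fat and Ccne2 did not.

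**Figure D5:**
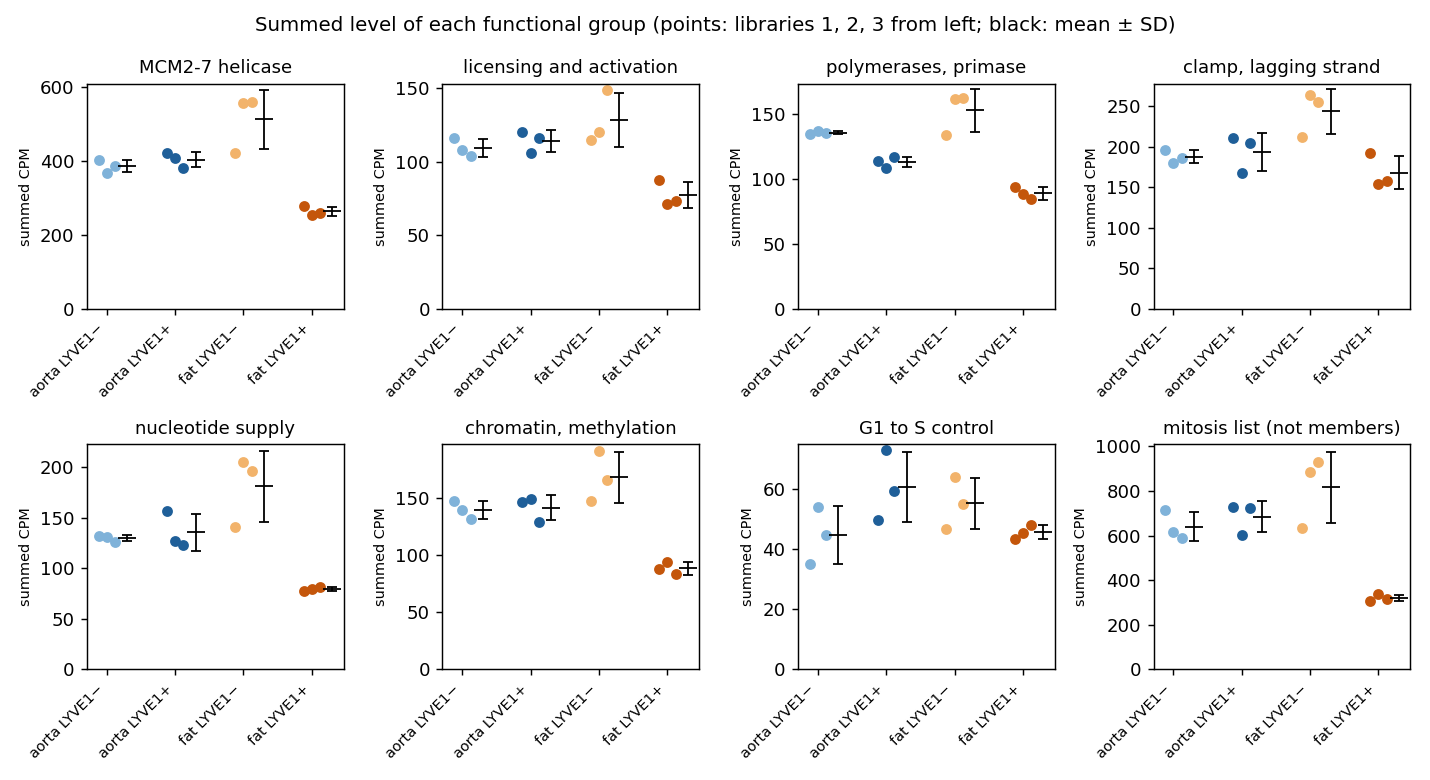
Summed TMM-scaled CPM of each functional group of members and, last, of the mitosis list, by group of libraries with mean and SD in black; each axis starts at 0. Fat LYVE1+ has the lowest mean in each panel except G1 to S control, where E2f1 makes up most of the sum. The mitosis list also has fat LYVE1+ lowest and fat LYVE1- highest, with 308 to 337 CPM in fat LYVE1+ and 633 to 928 CPM in fat LYVE1- cells.

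Other genes of the same processes were counted from lists that do not share members with the set but were also chosen with earlier results known. Their counts in fat stand beside 2.10% of all genes called lower and 1.82% called higher. Of 28 further origin and fork genes, 2 fell in fat LYVE1+ cells and 0 rose, with a median of -0.34: Wdhd1, a fork protein, at -1.40 ± 0.30 (adjusted p = 0.0184), and Ticrr, an origin firing factor, at -3.54 ± 0.75 (adjusted p = 0.0188). Ticrr was at 10.4, 11.9 and 8.16 CPM in fat LYVE1- cells and at 0, 0.693 and 1.71 CPM in fat LYVE1+ cells. Of 16 S phase repair and checkpoint genes, 4 fell and 0 rose, with a median of -0.93, among them the checkpoint kinase Chek1 (-2.77 ± 0.58, adjusted p = 0.0176). Of 10 further S phase chromatin genes, 4 fell and 0 rose, with a median of -0.56, among them the histone chaperone Asf1b (-1.57 ± 0.21, adjusted p = 0.00117). Asf1b also had a called interaction of -1.87 ± 0.28 (adjusted p = 0.0206).

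Among 25 further G1 and S control genes, 3 fell and 0 rose, with a median of -0.21. Ccnd1, the D-type cyclin of G1, stood at 99.7, 97.3 and 93.5 CPM in fat LYVE1- and 36.5, 37.6 and 38.6 CPM in fat LYVE1+ cells (-1.36 ± 0.18, adjusted p = 0.00129), with the aorta at 75 to 143 CPM. The S and G2 cyclin Ccna2 and the G1 kinase Cdk6 fell by 1.62 ± 0.30 (adjusted p = 0.00873) and 0.81 ± 0.20 (adjusted p = 0.044). None of 10 further nucleotide supply genes was called in fat by edgeR, and DESeq2 called 1 higher. At an unadjusted p below 0.05 in edgeR, 2 were higher and 1 lower, as were 1073 and 1168 of all 14216 genes. The most abundant, Samhd1, which breaks down dNTPs outside S phase, was at 250, 303 and 294 CPM in fat LYVE1- and 337, 378 and 384 CPM in fat LYVE1+ cells (0.38 ± 0.13, adjusted p = 0.161). Samhd1 was lower in aorta LYVE1+ than in fat LYVE1+ cells (-0.75 ± 0.13, adjusted p = 0.00874). On a list of 30 mitosis genes, 24 fell in fat LYVE1+ cells and 0 rose, with a median of -1.68. Mki67, a marker of cycling cells, read 79.1, 84.8 and 101 CPM in fat LYVE1- and 29.9, 23.7 and 17.8 CPM in fat LYVE1+ cells (-1.90 ± 0.21, adjusted p = 0.00047). Without both fat libraries numbered 1, 3.26% of all genes were called lower in fat. The counts of listed genes that fell were then 3 of 28 for origin and fork, 4 of 16 for repair and checkpoint and 4 of 10 for chromatin. For G1 and S control it was 7 of 25, for nucleotide supply 1 of 10 and for mitosis 26 of 30. In the aorta edgeR called 0 of the 119 genes on these 6 lists between the sorts, against 0.542% of all genes, and DESeq2 called 2 higher. At an unadjusted p below 0.05 in edgeR, 7 were higher and 2 lower, against 11.3% of all genes in either direction.

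Markers of other cells were counted in the same libraries. The 6 monocyte markers summed to 813, 672 and 655 CPM in fat LYVE1- and 280, 77.1 and 76.9 CPM in fat LYVE1+ cells, and 1 of the 6 was called. This was Ccr2, which made up most of the sum and fell by 3.11 ± 0.46 on the log2 scale (adjusted p = 0.00237), from 725, 649 and 637 to 147, 43.4 and 44.1 CPM. Plac8 lay the other way without a call, at 17.1, 7.65 and 8.66 CPM in fat LYVE1- and 23, 27.3 and 22.5 CPM in fat LYVE1+ cells (1.13 ± 0.48, adjusted p = 0.266). Ly6c2 stayed between 0.433 and 10.7 CPM in fat. In the aorta the monocyte sum was 312, 157 and 289 CPM in LYVE1- and 24.8, 23.8 and 21 CPM in LYVE1+ cells, and Ccr2 was again the 1 marker of 6 called.

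Of 8 dendritic cell markers, 6 were negative and 2 positive in fat LYVE1+ against LYVE1- cells, with a median log2 fold change of -0.76. Cd209a alone was called by edgeR in fat, higher in LYVE1+ cells (0.72 ± 0.17, adjusted p = 0.0301). DESeq2 called 1 higher and 1 lower. In the aorta all 8 were negative, and edgeR called Clec9a lower (-8.86 ± 1.51, adjusted p = 0.0316), at 0 CPM in the LYVE1+ libraries. The list summed to 255 to 561 CPM in fat LYVE1- and 378 to 520 CPM in fat LYVE1+ cells. The 12 T and NK cell markers summed to 187, 46.1 and 48.3 CPM in fat LYVE1- and 323, 35.9 and 29.0 CPM in fat LYVE1+ cells, with 0 called by edgeR or at an unadjusted p below 0.05. The T cell receptor gene Cd3e was highest in the fat libraries numbered 1, at 7.29 CPM in LYVE1- and 17.7 CPM in LYVE1+ cells, and at 0 to 0.52 CPM in the other fat libraries. The mast cell and eosinophil list reached 49.3 to 86 CPM in aorta LYVE1- cells, against 2.49 to 13.7 CPM in aorta LYVE1+ and 8.37 to 65.6 CPM in fat. Neutrophil markers summed to at most 20.9 CPM, in fat LYVE1+ library 1. The part of these cells in the differences of the replication genes was not tested.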

How the data were processed

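The authors deposited raw counts per gene, whole numbers for 12 libraries, and these counts were the values used. Tools named per the submitters' processing notes are featureCounts 1.5.0, STAR 2.5.2b and edgeR 3.14.0, on the build GRCm38. The annotation release, strand setting and filters are not given in the sources used here. Symbols came from GENCODE M21 by Ensembl identifier (46005 of 46517 genes).

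The 4 groups of all 12 libraries were fitted together in edgeR 4.0.16 (R 4.3.3) with TMM scaling, the filterByExpr filter (14216 genes kept, all 41 members among them) and the quasi-likelihood test with 8 residual degrees of freedom. A call is a Benjamini-Hochberg adjusted p below 0.05 over all genes kept. The members and lists were chosen with earlier results of these data known. Members given library by library were, in each functional group, those called and then the most abundant, up to 4. From other lists up to 3 called genes with the smallest adjusted p in fat were named, or the most abundant. Replicate libraries differed by more than counting noise (chi-square per degree of freedom 7.64 and 9.49 between fat libraries 2 and 3 of each sort, 27.4 to 97.4 for the other pairs), so none was treated as a repeat deposit. This does not show that they are separate biological samples.

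Alternatives were DESeq2 1.42.0, other scalings, no filter, each library left out, both fat libraries numbered 1 left out, the library prefix as a term, only the groups compared, and a replicate block. Libraries with the same number deviated together in fat (correlations across genes of 0.486, 0.279 and 0.184) and not in the aorta (-0.0441, -0.0767 and -0.170). A term for the number was fitted only in the replicate block. The fit of all 12 libraries behind the main calls held no pairing term. Fat libraries 2 and 3 are not separated by number, with 0.225 and 0.192 for their unlike-numbered pairs. The deposited log2 table was not used.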

Additional observations from a re-analysis of the deposited data

Results flagged for a closer look

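In the main fit, the effect of the LYVE1 sort differed between fat and aorta for 4 members by the test of the difference itself. The fat difference of LYVE1+ minus LYVE1- cells, less the same difference in the aorta, was -2.16 on the log2 scale for Tk1, -1.99 for Rrm2, -1.70 for Mcm5 and -1.02 for Mcm3. Of the 12 fits with a library left out, the call held in 4 for Mcm5, 3 each for Tk1 and Rrm2 and 1 for Mcm3. All 4 calls ended with the prefix as a term. In each of these genes the fat groups were apart and the aorta means lay between theirs. Groups of 3 libraries are too small for a test of single outlying libraries.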

How the results depend on the processing

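The 16 members called in fat became 24 with DESeq2, 19 with a replicate block, 18 without a filter on low counts, 4 with only the fat groups fitted and 6 to 18 with one library left out. The aorta count was 0 in all 20 alternatives run. With the prefix as a term, the median of the members in the aorta changed from 0.07 to -0.03. The interaction count of 4 became 8 with DESeq2, 9 without both fat libraries numbered 1, 0 with the prefix as a term, 3 with a replicate block and 0 to 6 with one library left out. For aorta against fat in LYVE1+ cells, the count of 6 became 12 with DESeq2, 10 without a filter, 11 without both fat libraries numbered 1, 3 with the prefix as a term, 3 with only the groups compared and 2 to 9 with one library left out. In LYVE1- cells the count of 1 became 5 with DESeq2, 6 without both fat libraries numbered 1, 0 with the prefix as a term and 0 to 4 with one library left out. The block ended the calls of Prim2 in fat and Mcm3 in the interaction. Both changed scalings kept the sign of the fat difference in 41 of 41 members. Fat LYVE1+ library 1 was the shallowest, at 5049936 counts, and gave the lowest member count, 3 for Gins1. The number of all genes called also changed more than slightly, in 8 of the 20 alternatives for the sorts in fat and 13 in the aorta. For the interaction it did so in 15 of 19. For aorta against fat it did so in 10 in LYVE1+ cells and 11 in LYVE1- cells. Apart from the fat count without both libraries numbered 1, the alternative member counts are given without the share of all genes called. The cause of these changes was not tested.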
